A study of Mus musculus with 13 samples.

Results

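The 9 genes described here encode proteins of the Z-disc and the M-band of the cardiac sarcomere: Ttn, Actn2, Ldb3, Myom1, Myom2, Nebl, Nrap, Csrp3 and Des. They were taken by symbol from the 27998 genes of each matrix. Their RNA was read in cardiomyocyte barcodes, which were droplet barcodes with at least 2000 unique molecular identifiers (UMIs), at least 1% of UMIs from mitochondrial genes, and at least 1500 CPM of Tnnt2, cardiac troponin T (CPM are UMIs of a gene scaled to counts per 1e6 UMIs of the barcode). Of the 67411 barcodes past the UMI and mitochondrial minimums, 23830 met the Tnnt2 rule. A ventricular barcode had at least 1000 CPM of Myl2, the ventricular regulatory light chain, and 20797 barcodes did. An atrial barcode had under 500 CPM of Myl2 and at least 1000 CPM of Myl7, the atrial light chain, and 2100 barcodes did. Tnnt2, Myl2 and Myl7 chose the barcodes, so their levels are not results.

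A sarcomere runs from one Z-disc to the next. Actin filaments are anchored in the Z-disc by alpha-actinin, and myosin filaments are joined at the M-band by myomesins. Titin reaches from the Z-disc to the M-band as an elastic filament, and desmin intermediate filaments tie neighbouring Z-discs to each other and to the cell membrane. Heart muscle starts to beat while its first myofibrils are still being laid down, and these are then widened and aligned through fetal and neonatal growth.

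All samples came from wild-type C57Bl/6J mice, with no transgene or treatment. Whole embryos, from which head and limbs had been cut, were dissociated at embryonic day (E) 8.5 and E10.5. Dissected hearts were used from E12.5 to E16.5, every 2 days, and on the postnatal day 3 (P3). E10.5, E12.5, E14.5 and E16.5 had 2 libraries each, and the labels do not say how many animals each held. The matrix of replicate 1 of E16.5 belongs to 2 sample records and was counted once. E8.5 (replicate 2 only, since replicate 1 was not analysed here) and P3 (1 matrix with 2 wells that no label ties to a sample) entered no test. The change from embryos to hearts falls between E10.5 and E12.5, so stage and dissection cannot be told apart in that step.

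The libraries held 67141166 to 259041468 UMIs, and the median cardiomyocyte barcode held 13194 to 25403. The ventricular and atrial barcodes numbered 54 and 55 at E8.5, 36 and 51 in replicate 1 and 41 and 38 in replicate 2 of E10.5, and 5931 and 768 at P3. From E12.5 to E16.5 each library gave 1483 to 3300 ventricular and 129 to 233 atrial barcodes. The cardiomyocyte marker genes fitted the label at each stage, with a summed level of 12385 to 27787 CPM in the chamber sums. Atrial markers stood at 16922 and 17084 CPM in atrial against 1801 and 1840 CPM in ventricular barcodes at E16.5. At E10.5 they lay close together, at 7309 and 7433 against 5753 and 6800 CPM, while the ventricular markers stood at 4213 and 5537 CPM in ventricular against 1908 and 1432 CPM in atrial barcodes. At E8.5 the atrial markers went against the chamber names, at 6842 CPM in the barcodes called atrial and 7085 CPM in those called ventricular, so the names there rest on Myl2 and Myl7 and on the ventricular markers (1300 against 3939 CPM). Of the cardiomyocyte barcodes, 1.68 to 10.2% also carried markers of another cell class or globin RNA. Over the 45 pairs of libraries, 347 cardiomyocyte barcode sequences were shared, where the sizes of the lists alone give 318.

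The genes lie at separate places in the mouse genome (GRCm38, GENCODE M21), with Ttn at chr2:76703980-76982547, Actn2 at chr13:12269426-12340760, Ldb3 at chr14:34526603-34588682, Myom1 at chr17:71002633-71126856, Myom2 at chr8:15057653-15133541, Nebl at chr2:17343909-17731464, Nrap at chr19:56320035-56390037, Csrp3 at chr7:48830398-48848033 and Des at chr1:75360329-75368579. Myom1, Myom2 and Des lie on the plus strand and the other 6 on the minus strand. All 9 are annotated as protein coding, with 3 transcripts for Des to 25 for Ttn. UMIs were counted from the 3′ end of the RNA, so the splice forms of titin and Ldb3 could not be told apart. RefSeq lists 13 starts for 8 of the genes, and the 250 bases before each start were searched on both strands for 7 motifs. The E-box CANNTG, read by basic helix-loop-helix factors, was found before 9 of the 13 starts, where 66.2% of all 32536 promoters hold it, so its share was near that of all promoters. It was missing for Ldb3 alone among the 8 genes. The CArG box, read by serum response factor, was found before 4 of the 13 starts (Ldb3, Myom1 and Nebl), against 1.48% of all promoters. The windows of the 2 Ldb3 starts overlap and hold the same box, so these are 3 separate sites. The MEF2 motif was found before 1 start (Ttn), against 2.89%. CATTCC was found before 1 start (Nebl; 12.6% of all promoters), AGGTGT before 2 (Nebl and Csrp3; 11.9%), AAGTG before 3 (Nebl, Nrap and Csrp3; 40.6%), and TATAAA in 0 of the 13 windows (12.3%). A match is a description of the letters and no evidence of binding.

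The 250 bases before the start are given for 5 genes (GRCm38.p6, 5′ to 3′ on the strand of the gene), chosen to show the less common motifs and the pair of genes that were higher in ventricular barcodes at every stage from E12.5 to E16.5. Capitals mark the MEF2 motif for Ttn (chr2:76982548-76982797, minus strand) and the CArG box for Ldb3 (chr14:34588682-34588931, minus strand) and Myom1 (chr17:71019307-71019556, plus strand).
Ttn: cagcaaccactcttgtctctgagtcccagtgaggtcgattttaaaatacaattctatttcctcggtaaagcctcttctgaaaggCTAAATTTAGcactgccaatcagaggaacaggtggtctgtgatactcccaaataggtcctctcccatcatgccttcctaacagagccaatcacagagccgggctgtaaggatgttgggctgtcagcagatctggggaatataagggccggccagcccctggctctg
Ldb3: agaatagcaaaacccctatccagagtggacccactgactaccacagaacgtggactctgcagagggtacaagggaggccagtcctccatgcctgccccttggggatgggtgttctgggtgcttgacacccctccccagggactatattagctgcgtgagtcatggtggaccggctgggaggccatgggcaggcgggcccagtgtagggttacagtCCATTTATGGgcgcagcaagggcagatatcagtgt
Myom1: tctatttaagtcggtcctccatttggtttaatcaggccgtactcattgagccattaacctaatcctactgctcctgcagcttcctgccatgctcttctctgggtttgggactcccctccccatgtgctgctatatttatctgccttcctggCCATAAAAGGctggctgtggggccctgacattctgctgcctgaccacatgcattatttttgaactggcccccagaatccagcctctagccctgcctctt
For Actn2 (chr13:12340733-12340982, minus strand) and Nrap (chr19:56390039-56390288, minus strand), whose levels followed each other over the chamber sums as described below, capitals mark each E-box. The middle E-box of Nrap shares bases with an AAGTG match on the other strand.
Actn2: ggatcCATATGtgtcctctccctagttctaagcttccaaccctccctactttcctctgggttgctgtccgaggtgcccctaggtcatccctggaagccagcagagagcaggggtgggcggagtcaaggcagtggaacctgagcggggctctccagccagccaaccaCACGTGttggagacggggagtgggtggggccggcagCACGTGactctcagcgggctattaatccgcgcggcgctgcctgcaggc
Nrap: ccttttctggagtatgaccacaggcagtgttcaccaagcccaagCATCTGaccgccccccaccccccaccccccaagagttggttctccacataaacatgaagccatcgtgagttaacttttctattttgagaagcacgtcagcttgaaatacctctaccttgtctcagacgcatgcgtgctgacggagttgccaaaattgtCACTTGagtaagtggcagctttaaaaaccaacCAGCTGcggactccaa

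Stages were compared in the UMI sums of all cardiomyocyte barcodes of each of 8 libraries, by edgeR's quasi-likelihood test over 14483 genes with Benjamini-Hochberg adjustment. Most members rose in the first and last steps and fewer in the middle step. From E10.5 to E12.5, 6 of the 9 members rose, where 16.2% of all genes tested rose and 13.4% fell. From E12.5 to E14.5, 4 rose and 2 fell, against 18.2% and 15.9% of all genes, and without either E14.5 library 3 members were called in place of these 6. From E14.5 to E16.5, 8 rose, against 19.9% higher and 19.2% lower. Over the members with a fold, the median log2 change was 0.72, 0.0062 and 0.54 in the 3 steps, beside 0.074, 0.0042 and -0.0075 for all genes. The chamber mix changed in the first step: the E10.5 libraries had 33.3 and 41.4% ventricular barcodes among their cardiomyocyte barcodes and the E12.5 libraries 85.6 and 86.8%, with 90.7 to 92.6% in the later embryonic libraries, so a change over all barcodes includes a change in this mix. The tests measure the spread between libraries only, since the labels do not say whether those came from different litters or from 1 sample.

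Chambers were compared in 16 sums, 1 for each library and chamber, over 11879 genes. At E10.5, 1 member was higher in ventricular barcodes, where 0.833% of all genes were higher and 0.581% lower. At E12.5, 3 members were higher and 3 lower in ventricular than in atrial barcodes, against 16.7% and 15% of all genes. At E14.5, 2 were higher and 4 lower, against 17.1% and 15%, and without either E14.5 library 3 members were called in place of 6. At E16.5, 2 were higher and 2 lower, against 16.9% and 15.2%, and without TMM 6 members were called in place of 4. From E12.5 to E16.5, 7 members rose in ventricular barcodes and all 9 in atrial barcodes, where 30.8% and 13.7% of all genes rose and 29.1% and 10.0% fell. The atrial rise of Nebl was at the threshold (adjusted p = 0.0497) and was lost under 15 of 22 other settings, and leaving out 1 library gave 5 to 8 called ventricular and 6 to 9 called atrial changes. The ventricular-to-atrial ratio fell between those stages for 2 members, against 5.57% lower and 4.18% higher among all genes. The E10.5 sums held 36 to 51 barcodes each. Over the members with a fold, the median log2 difference between chambers was 0.35, 0.15, 0.087 and -0.0094 from E10.5 to E16.5, beside -0.00079, 0.010, 0.018 and 0.028 for all genes. Within ventricular and atrial barcodes the median change was 0.50 and 0.65, beside 0.0060 and 0.0082, and the median change of the chamber ratio was -0.18 beside 0.012.

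The fits use TMM scaling, which sets the median gene near 0. Without it, the median of all genes moved by -0.20 on the log2 scale in the step from E14.5 to E16.5, by -0.15 to -0.17 in the chamber comparisons from E12.5 on, and by -0.20 and -0.18 between E12.5 and E16.5 in ventricular and atrial barcodes. The share of called genes that were higher then dropped from 50.9 to 20.03% for E16.5 against E14.5, from 52.7, 53.3 and 52.6% to 28.8, 31.4 and 29.2% for the chambers at E12.5, E14.5 and E16.5, and from 51.4 and 57.8 to 29.2 and 29.2% within the ventricular and atrial barcodes. It dropped from 54.7 to 43.8% for E12.5 against E10.5. The changes given below are relative to the TMM scale, while the levels in CPM are shares of all UMIs.

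**Figure D1:**
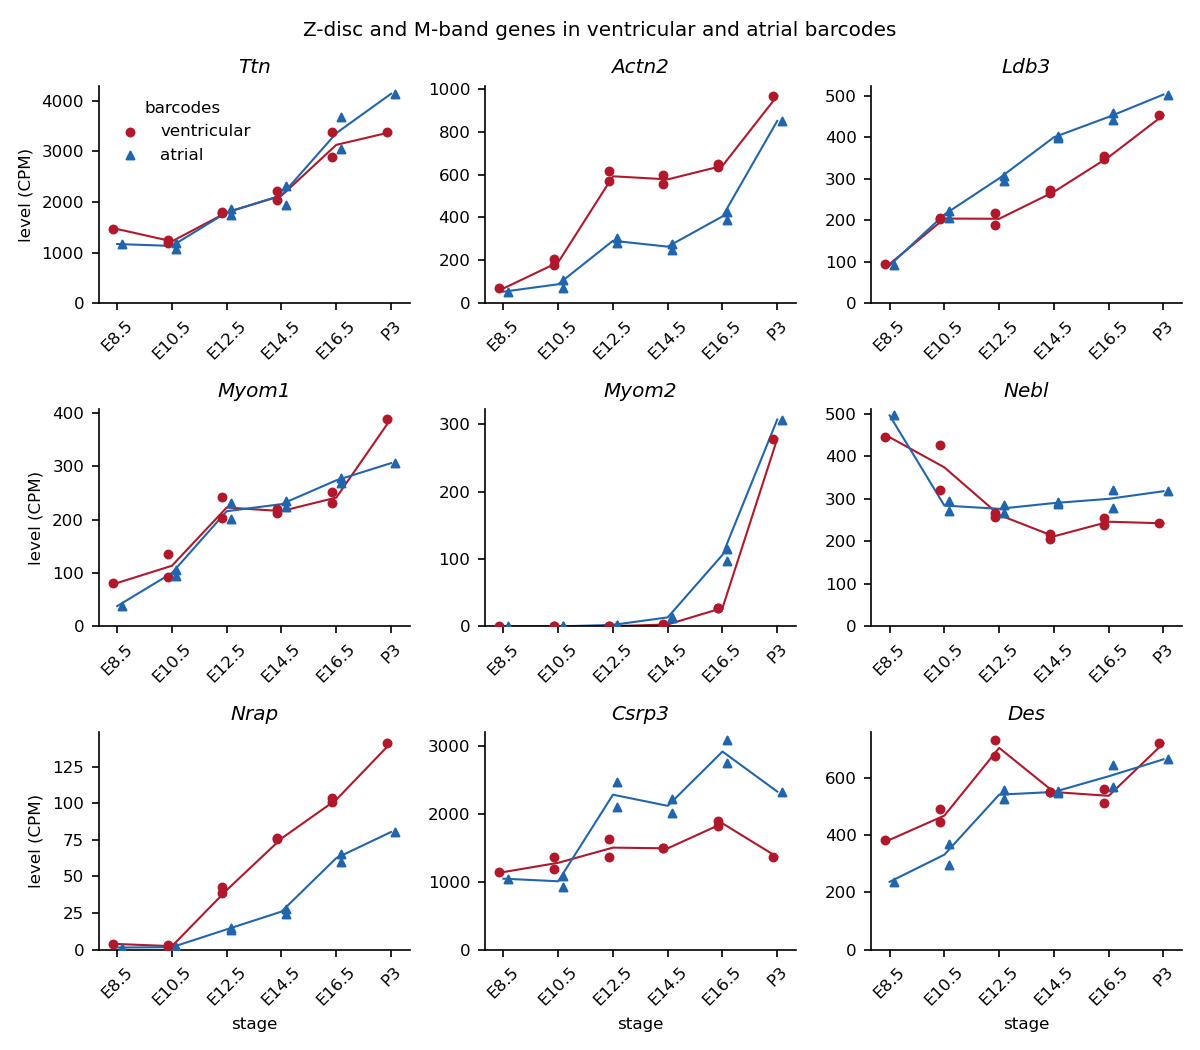
Level of each gene in CPM (vertical axis, linear from 0) at each stage (horizontal axis) in ventricular (red circles) and atrial (blue triangles) barcodes, with 1 point per library and lines through the mean of a stage. Nrap and Actn2 lie higher in ventricular barcodes from E12.5 on, Myom2 and Csrp3 lie higher in atrial barcodes from E12.5 to E16.5, and Myom2 is near 0 until E14.5.

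Ttn encodes titin. In ventricular barcodes its level was 1465 CPM at E8.5, 1248 and 1196 CPM in replicates 1 and 2 of E10.5, 1779 and 1807 CPM at E12.5, 2039 and 2210 CPM at E14.5, 2880 and 3376 CPM at E16.5, and 3381 CPM at P3. The atrial level was 1169 CPM at E8.5, 1196 and 1067 CPM at E10.5, 1856 and 1734 CPM at E12.5, 1945 and 2315 CPM at E14.5, 3043 and 3676 CPM at E16.5, and 4137 CPM at P3. The chambers overlapped from E12.5 to E16.5 and nearly touched at E10.5, and neighbouring stages from E10.5 to E16.5 did not overlap in either chamber. Ttn rose by 0.66 ± 0.087 (log2 change ± SE, adjusted p = 1.50e-05) from E10.5 to E12.5 and by 0.76 ± 0.084 (adjusted p = 1.45e-06) from E14.5 to E16.5. The step from E12.5 to E14.5 was 0.25 ± 0.084 (adjusted p = 0.0275) and lost its call without replicate 1 of E14.5 (0.31) or without replicate 2 (0.19), with a Tnnt2 threshold of 3000 CPM (0.17) and after thinning to 2000 UMIs a barcode (0.25). The ventricular-to-atrial difference of Ttn passed at none of the 4 stages in edgeR, with log2 values of 0.07 to 0.17 and unadjusted p of 0.138 to 0.524. It passed once, at E14.5 (0.28), when barcodes below the mitochondrial minimum were kept.

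Actn2 encodes alpha-actinin-2, the actin crosslinker of the Z-disc. Its ventricular level was 68.9 CPM at E8.5, 176 and 206 CPM at E10.5, 568 and 616 CPM at E12.5, 558 and 597 CPM at E14.5, 633 and 649 CPM at E16.5, and 967 CPM at P3. Its atrial level was 53.8 CPM at E8.5, 107 and 69.7 CPM at E10.5, 279 and 303 CPM at E12.5, 250.2 and 277 CPM at E14.5, 386 and 424 CPM at E16.5, and 850.3 CPM at P3. Every ventricular value lay above every atrial value of the same stage, and the E12.5 and E14.5 values overlapped in ventricular barcodes and lay next to each other in atrial barcodes. Actn2 rose by 2.12 ± 0.098 on the log2 scale, 4.35-fold, from E10.5 to E12.5 (adjusted p = 5.68e-11). Within a chamber the mean level at E12.5 was 3.101 times that at E10.5 in ventricular and 3.29 times in atrial barcodes, below the 4.07 times over all cardiomyocyte barcodes. The step from E12.5 to E14.5 was 0.0062 ± 0.078 (adjusted p = 0.963), and Actn2 then rose by 0.36 ± 0.078 from E14.5 to E16.5 (adjusted p = 0.00121), a call that was lost without TMM (0.16) and without replicate 1 of E14.5 (0.31).

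The ventricular excess of Actn2 was called at all 4 stages tested: 1.05 ± 0.18 at E10.5 (adjusted p = 0.0012), 1.17 ± 0.11 at E12.5 (3.35e-09), 1.30 ± 0.11 at E14.5 (8.67e-10) and 0.84 ± 0.11 at E16.5 (6.68e-07). Within a library the ventricular level was 2.04 and 2.03 times the atrial level at E12.5, 2.23 and 2.15 times at E14.5, 1.64 and 1.53 times at E16.5, and 1.14 times at P3, which has no test. With mitochondrial genes left out of the totals, the P3 levels were 1253 CPM in ventricular and 989 CPM in atrial barcodes. The E10.5 call rests on replicate 2, where the ratio was 2.95 against 1.64 in replicate 1, and was lost without it (0.67), with the study's mitochondrial ceiling (0.87) and after thinning to 2000 UMIs a barcode (1.14). The ventricular-to-atrial ratio of the cardiomyocyte markers was also higher in replicate 2, at 17952 against 12385 CPM. In replicate 1 these markers were lower in ventricular barcodes, at 12944 against 16373 CPM, where Actn2 was higher. The fibroblast markers of the ventricular barcodes stood at 152 and 22.2 CPM in replicates 1 and 2, with Tcf21 at 0 in both. The part of the cardiomyocyte and fibroblast markers in the chamber results of E10.5 was not tested.

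Ldb3 encodes the PDZ and LIM domain protein cypher, also named ZASP, which binds alpha-actinin at the Z-disc. In ventricular barcodes its level was 94.4 CPM at E8.5, 202 and 206 CPM at E10.5, 189 and 218 CPM at E12.5, 272 and 265 CPM at E14.5, 356 and 349 CPM at E16.5, and 453 CPM at P3. Atrial barcodes held 91.1 CPM at E8.5, 206 and 222 CPM at E10.5, 295 and 307 CPM at E12.5, 402 and 398 CPM at E14.5, 440.3 and 457 CPM at E16.5, and 503 CPM at P3. Each atrial value lay above both ventricular values of its stage from E12.5 to E16.5, the opposite of Actn2. At P3 the wells overlapped between chambers, with 359 and 802 CPM in atrial against 343 and 756 CPM in ventricular barcodes. With mitochondrial genes left out of the total, the P3 level was 585 CPM in atrial and 587 CPM in ventricular barcodes. Ldb3 was lower in ventricular barcodes, with log2 differences of -0.42 ± 0.089 at E12.5 (adjusted p = 0.000739) and -0.41 ± 0.090 at E14.5 (adjusted p = 0.00103). At E16.5 the difference was -0.18 ± 0.088 (adjusted p = 0.135) and became a call without TMM (-0.35), in DESeq2 (-0.20) and without replicate 2 of E10.5 or either E12.5 library (each -0.20). Leaving out either E14.5 library ended the E14.5 call (-0.41 and -0.41), and thinning ended that of E12.5 (-0.32). Ldb3 rose by 0.39 ± 0.074 from E12.5 to E14.5 (adjusted p = 0.0007) and by 0.57 ± 0.074 from E14.5 to E16.5 (adjusted p = 9.13e-06), while the first step was 0.22 ± 0.090 (adjusted p = 0.0709). This step became a call under 4 of 20 other settings, at 0.50 with a Tnnt2 threshold of 500 CPM, 0.30 without replicate 1 of E12.5, 0.25 with no filter on low counts and 0.25 with mitochondrial genes left out. The mean level at E12.5 was 0.997 times that at E10.5 in ventricular and 1.41 times in atrial barcodes.

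Nebl encodes nebulette, a nebulin relative that links actin to the Z-disc. In ventricular barcodes its level was 445 CPM at E8.5, 321 and 427 CPM at E10.5, 266 and 258 CPM at E12.5, 206 and 218 CPM at E14.5, 238 and 254 CPM at E16.5, and 243 CPM at P3. In atrial barcodes it was 496 CPM at E8.5, 296 and 273 CPM at E10.5, 287 and 267 CPM at E12.5, 287 and 293 CPM at E14.5, 279 and 321 CPM at E16.5, and 318 CPM at P3. It was the only member with a ventricular level at E8.5 above both E12.5 libraries, and the only member besides Csrp3 with a ventricular level at P3 that was not above both E16.5 libraries. With mitochondrial genes left out of the total, the ventricular level of Nebl was 314 CPM at P3 and 279 CPM in the mean of E16.5. In 1 P3 well each, ventricular Ttn and Ldb3 also lay below both E16.5 libraries. From E10.5 to E12.5 Nebl changed by -0.10, which did not pass, and the Tnnt2 threshold gave calls of both signs, 0.26 at 500 CPM and -0.40 at 3000 CPM. Within a chamber the mean level at E12.5 was 0.701 times that at E10.5 in ventricular and 0.973 times in atrial barcodes. This step was not tested within a chamber. Nebl fell by 0.28 from E12.5 to E14.5 (log2 -0.28 ± 0.079, adjusted p = 0.0117) and rose by 0.41 ± 0.079 from E14.5 to E16.5 (adjusted p = 0.000504). The fall lost its call without either E14.5 library (-0.25 and -0.31) and after thinning (-0.24). The chamber difference was called at E14.5 alone among the stages tested, at -0.28 ± 0.11 (adjusted p = 0.0441), and that call was lost without the filter on low counts (-0.26), with a Tnnt2 threshold of 500 CPM (-0.23), after thinning (-0.37), with stricter chamber thresholds (-0.31) and without either E14.5 library (-0.25 and -0.33). Other stages gained a call under some settings: E16.5 without TMM (-0.29, adjusted p = 0.0281), where both atrial levels lay above both ventricular levels, and E10.5 with a Tnnt2 threshold of 500 CPM (0.44) and without replicate 1 of E10.5 (0.68).

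Csrp3 encodes muscle LIM protein, found at the Z-disc and in the nucleus. Its ventricular level was 1146 CPM at E8.5, 1193 and 1372 CPM at E10.5, 1638 and 1375 CPM at E12.5, 1497 and 1495 CPM at E14.5, 1899 and 1830 CPM at E16.5, and 1368 CPM at P3. Its atrial level was 1048 CPM at E8.5, 929.6 and 1090.2 CPM at E10.5, 2471 and 2104 CPM at E12.5, 2224 and 2023 CPM at E14.5, 3099 and 2751 CPM at E16.5, and 2334 CPM at P3. The atrial values lay below both ventricular values at E10.5 and above them from E12.5 on. Csrp3 was lower in ventricular barcodes by -0.45 ± 0.12 at E12.5 (adjusted p = 0.00596), -0.34 ± 0.12 at E14.5 (adjusted p = 0.0372) and -0.48 ± 0.12 at E16.5 (adjusted p = 0.00344). At E10.5 the difference was 0.35 ± 0.13 (adjusted p = 0.287), and a replicate block, with the library as the block, made it a call (0.34), as did a Tnnt2 threshold of 500 CPM (0.51) and stricter chamber thresholds (0.61). Whether the chamber difference changed from E10.5 to E12.5 was not tested. The E14.5 call was lost with the mitochondrial ceiling (-0.34) and without either E14.5 library (-0.26 and -0.42), and the E16.5 call without replicate 1 of E16.5 (-0.43). Over all cardiomyocyte barcodes Csrp3 rose by 0.77 ± 0.10 from E10.5 to E12.5 (adjusted p = 1.62e-05) and by 0.54 ± 0.098 from E14.5 to E16.5 (adjusted p = 0.000274). In the first step its mean level changed 1.17 times in ventricular and 2.27 times in atrial barcodes. The middle step was -0.05, which did not pass, and of 21 other settings only that without replicate 2 of E12.5 made it a call (-0.20, adjusted p = 0.0498).

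Nrap encodes nebulin-related anchoring protein, which takes part in the assembly of new myofibrils and sits at the ends of mature ones. It was almost absent from the embryo libraries, with 7 UMIs in 119 cardiomyocyte barcodes at E8.5 and 2 and 3 UMIs in 108 and 99 barcodes at E10.5. In ventricular barcodes its level was 3.87 CPM at E8.5, 1.63 and 3.16 CPM at E10.5, 38.7 and 42.8 CPM at E12.5, 75.9 and 76.1 CPM at E14.5, 101 and 104 CPM at E16.5, and 141 CPM at P3. The atrial level was 1.43 CPM at E8.5, 1.29 and 2.11 CPM at E10.5, 14.6 and 13.1 CPM at E12.5, 24.5 and 27.5 CPM at E14.5, 60.1 and 65.0 CPM at E16.5, and 80.4 CPM at P3. The libraries of neighbouring stages did not overlap in either chamber from E10.5 on, and the ventricular values lay above the atrial values from E12.5 on.

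Nrap rose in each step: by 4.60 ± 0.30 from E10.5 to E12.5 (adjusted p = 3.14e-09), by 0.96 ± 0.067 from E12.5 to E14.5 (adjusted p = 1.06e-08) and by 0.66 ± 0.065 from E14.5 to E16.5 (adjusted p = 3.82e-07). The first step starts from 5 UMIs in all, and the ratio of the pooled levels was 22.8, with a 95% counting interval of 9.77 to 70.4. The SE of 0.30 understates this counting error. The ventricular excess was 1.71 ± 0.11 at E12.5 (adjusted p = 9.69e-12), 1.73 ± 0.11 at E14.5 (6.75e-12) and 0.89 ± 0.084 at E16.5 (5.24e-09). Within a library the ventricular level was 2.64 and 3.26 times the atrial level at E12.5, 3.09 and 2.77 times at E14.5, 1.68 and 1.60 times at E16.5, and 1.76 times at P3. With mitochondrial genes left out of the totals, the P3 levels were 183 CPM in ventricular and 93.5 CPM in atrial barcodes.

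**Figure D2:**
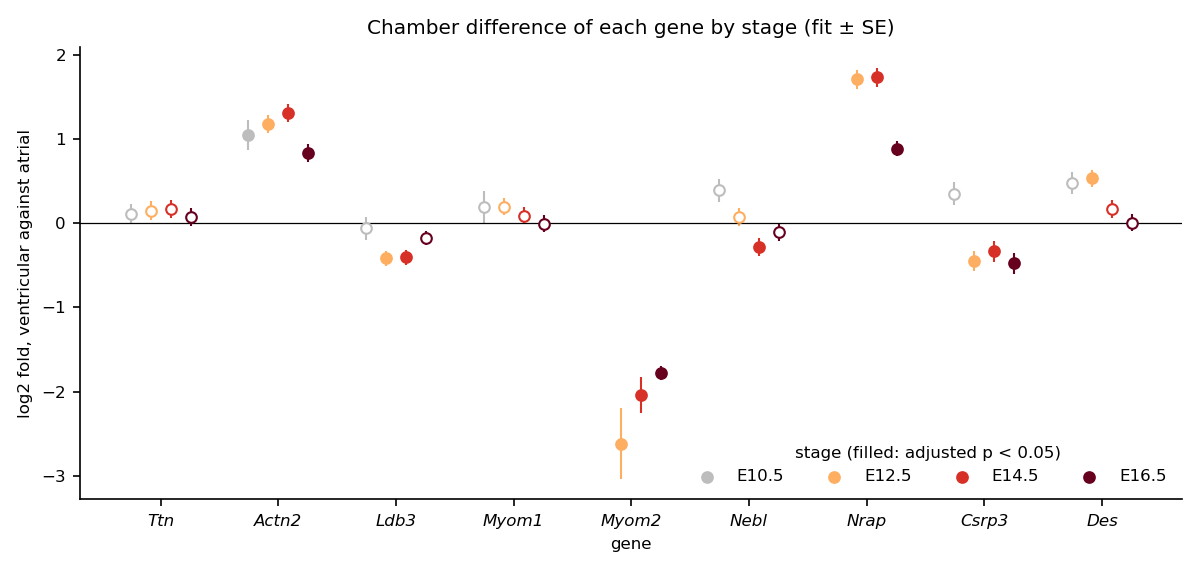
Ventricular against atrial difference of each gene (log2, vertical axis; horizontal axis: gene) from the edgeR fit, with bars of ± SE and 1 point for each of E10.5, E12.5, E14.5 and E16.5, filled where the adjusted p is below 0.05. Actn2 and Nrap are positive, Myom2 reaches -2.62, and Ttn and Myom1 lie near 0 at all 4 stages. Points are left out for Myom2 and Nrap at E10.5, where a chamber held at most 3 UMIs.

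Myom1 and Myom2 encode myomesin 1 and myomesin 2 (M-protein), which crosslink myosin filaments at the M-band. Myom1 was present from the first stage: its ventricular level was 81.3 CPM at E8.5, 135 and 91.8 CPM at E10.5, 203 and 242 CPM at E12.5, 211 and 220.2 CPM at E14.5, 230.1 and 252 CPM at E16.5, and 389 CPM at P3. Its atrial level was 38.0 CPM at E8.5, 94.4 and 106 CPM at E10.5, 201 and 231 CPM at E12.5, 223 and 234 CPM at E14.5, 268 and 278 CPM at E16.5, and 305 CPM at P3. Myom1 rose by 1.23 ± 0.11 from E10.5 to E12.5 (adjusted p = 1.06e-07) and by 0.37 ± 0.078 from E14.5 to E16.5 (adjusted p = 0.00115), the latter not called without TMM (0.17). Its chamber difference passed at none of the 4 stages in edgeR, nor in DESeq2, with log2 values of -0.01 to 0.19 and unadjusted p of 0.0631 to 0.926.

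Myom2 came later. It held 0 UMIs in the 119 cardiomyocyte barcodes of E8.5 and in the 4 chamber sums of E10.5, where a count of 0 allows up to 3.88 to 6.34 CPM. All cardiomyocyte barcodes of E10.5 held 1 and 2 UMIs. In ventricular barcodes its level was 0.360 and 0.307 CPM at E12.5 (14 and 15 UMIs), 2.72 and 3.22 CPM at E14.5, 27.0 and 27.8 CPM at E16.5, and 278 CPM at P3. Atrial barcodes held 2.44 and 2.15 CPM at E12.5 (11 and 11 UMIs), 13.98 and 12.9 CPM at E14.5, 97.2 and 115 CPM at E16.5, and 307 CPM at P3. From E12.5 to E16.5 both atrial libraries lay above both ventricular libraries of their stage, and these stages did not overlap within a chamber. The P3 wells overlapped between chambers, with 328 and 263 CPM in atrial against 290 and 247 CPM in ventricular barcodes.

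Myom2 rose by 2.71 ± 0.16 on the log2 scale, 6.53-fold, from E12.5 to E14.5 (adjusted p = 1.22e-09) and by 3.30 ± 0.084, 9.85-fold, from E14.5 to E16.5 (adjusted p = 3.69e-14). A change between E10.5 and E12.5 was not detectable at this depth: the pooled ratio was 0.599, with a counting interval of 0.195 to 2.99. The atrial level was 6.14-fold higher at E12.5 (log2 -2.62 ± 0.42 for ventricular against atrial, adjusted p = 3.28e-05), 4.13-fold at E14.5 (-2.04 ± 0.21, 7.66e-08) and 3.43-fold at E16.5 (-1.78 ± 0.086, 5.32e-14). At P3, with 1 matrix and no test, the atrial level was 1.10 times the ventricular level. With mitochondrial genes left out of the totals, the P3 level was 357 CPM in atrial and 360 CPM in ventricular barcodes. The median mitochondrial share at P3 was 13.997% in atrial and 23.1% in ventricular barcodes. The E12.5 call was lost after thinning (-1.84).

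**Figure D3:**
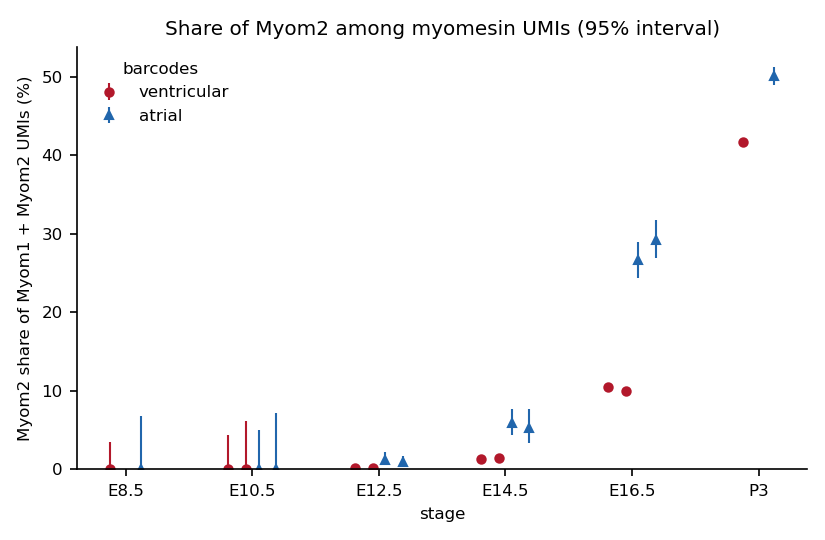
Share of Myom2 among the UMIs of Myom1 and Myom2 together (percent, vertical axis, from 0) at each stage (horizontal axis), in ventricular (red circles) and atrial (blue triangles) barcodes, with 1 point per library and exact 95% binomial intervals. The share passes from under 2% at E12.5 to 41.7% in ventricular and 50.1% in atrial barcodes at P3, and the atrial points lie above the ventricular points from E12.5 on. At P3 the chambers differ more in Myom1 than in Myom2.

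The balance of the 2 myomesins can be read within a sum without any scaling. Myom2 made up 0.177 and 0.127% of their UMIs in ventricular and 1.20 and 0.925% in atrial barcodes at E12.5. At E14.5 the shares were 1.27 and 1.44% in ventricular and 5.90 and 5.23% in atrial barcodes. At E16.5 they were 10.495% (95% exact binomial interval 10.03 to 10.97%) and 9.93% (9.41 to 10.46%) in ventricular barcodes, and 26.6% (24.4 to 28.9%) and 29.3% (26.9 to 31.7%) in atrial barcodes. At P3 they were 41.7 and 50.1%, and the wells gave 41.4 and 42.7% in ventricular and 50.3 and 49.5% in atrial barcodes. The intervals of the 2 chambers did not overlap from E12.5 on. At P3 the difference in share went with Myom1 more than with Myom2. With mitochondrial genes left out of the totals, Myom1 was at 504 CPM in ventricular and 355 CPM in atrial barcodes, and Myom2 at 360 and 357 CPM. Such intervals cover counting error only.

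Des encodes desmin. In ventricular barcodes its level was 383 CPM at E8.5, 447 and 489 CPM at E10.5, 675 and 733 CPM at E12.5, 549 and 550.2 CPM at E14.5, 513 and 561 CPM at E16.5, and 720.3 CPM at P3. In atrial barcodes it was 237 CPM at E8.5, 367 and 296 CPM at E10.5, 526 and 555 CPM at E12.5, 554 and 547 CPM at E14.5, 567 and 643 CPM at E16.5, and 664 CPM at P3. The ventricular values peaked at E12.5 among the embryonic stages, while the atrial values lay within 526 to 643 CPM from E12.5 to E16.5. Des rose by 0.57 ± 0.081 from E10.5 to E12.5 (adjusted p = 3.94e-05) and fell by 0.31 from E12.5 to E14.5 (log2 -0.31 ± 0.075, adjusted p = 0.00411). The fall lost its call without either E14.5 library (-0.31 and -0.31). The last step was 0.18 ± 0.075 (adjusted p = 0.0683) and was called under 5 of 21 other settings (0.18 to 0.21), a replicate block among them (0.18). Ventricular barcodes held more Des at E12.5 (0.53 ± 0.10, adjusted p = 0.000213), with differences of 0.48 ± 0.13 at E10.5 (adjusted p = 0.0604), 0.17 ± 0.10 at E14.5 (adjusted p = 0.225) and 0.00099 ± 0.10 at E16.5 (adjusted p = 0.997). The E10.5 difference was called under 9 of 21 other settings (0.44 to 0.76), among them DESeq2 (0.44) and a replicate block (0.48), and with the block 3 members passed there in place of 1.

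At E10.5 the embryo libraries also held skeletal muscle cells, which express desmin and titin. Of the 108 and 99 cardiomyocyte barcodes of E10.5, 9 and 5 carried at least 3 of 6 skeletal muscle markers, and these held 19.8 and 21.0% of the Des UMIs and 5.60 and 7.34% of the Ttn UMIs. They lay in neither chamber, where the markers Myog, Myod1, Myf6 and Chrna1 were at 0. The Des level of E10.5 was 476 and 508 CPM with them and 412 and 429 CPM without them. With all barcodes that carried markers of another class left out, the rise of Des from E10.5 to E12.5 was 0.80, that of Ttn 0.68 and that of Csrp3 0.71, and each was called.

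Between E12.5 and E16.5 the members were also compared within each chamber. Ventricular barcodes gained 1.00 ± 0.11 in Ttn, 0.31 ± 0.10 in Actn2, 0.99 ± 0.087 in Ldb3, 0.32 ± 0.096 in Myom1, 6.54 ± 0.14 in Myom2, 1.53 ± 0.068 in Nrap and 0.50 ± 0.12 in Csrp3 on the log2 scale, with adjusted p from 4.13e-20 (Myom2) to 0.0108 (Actn2). Atrial barcodes gained 1.08 ± 0.11 in Ttn, 0.65 ± 0.11 in Actn2, 0.75 ± 0.091 in Ldb3, 0.52 ± 0.10 in Myom1, 5.70 ± 0.18 in Myom2, 0.29 ± 0.11 in Nebl, 2.35 ± 0.13 in Nrap, 0.53 ± 0.12 in Csrp3 and 0.34 ± 0.10 in Des, with adjusted p from 9.64e-17 (Myom2) to 0.0497 (Nebl). The Myom2 gains start from 14 and 15 UMIs in ventricular and 11 and 11 UMIs in atrial barcodes of E12.5. Their SE is smaller than the counting error of so few UMIs. In ventricular barcodes Nebl changed by 0.11 ± 0.10 (adjusted p = 0.365) and Des by -0.19 ± 0.099 (adjusted p = 0.0983), and neither passed. Without TMM the ventricular values of Actn2 and Myom1 were 0.11 and 0.11, and the atrial values of Nebl and Des 0.12 and 0.16, and none of these 4 passed. Single libraries also ended calls. The ventricular rise of Actn2 was lost without replicate 1 of E12.5 (0.25) or either E16.5 library (0.28 and 0.31), and that of Myom1 without replicate 1 of E12.5 (0.18) or replicate 2 of E16.5 (0.26). The atrial rise of Des was lost without replicate 1 of E12.5 (0.30) or either E16.5 library (0.39 and 0.26), that of Csrp3 without replicate 1 of E16.5 (0.40), and that of Nebl with each of the 6 libraries from E12.5 on left out in turn (0.21 to 0.35). The atrial rise of Myom1 was lost with stricter chamber thresholds (0.35), as was that of Des (0.44). The rise of Des was also lost with a Tnnt2 threshold of 3000 CPM (0.20) and after thinning (0.36), and under 7 of 22 other settings in all. The ventricular fall of Des was called under 9 of 22 other settings (-0.39 to -0.19), without TMM (-0.39) and in DESeq2 (-0.20) among them.

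**Figure D4:**
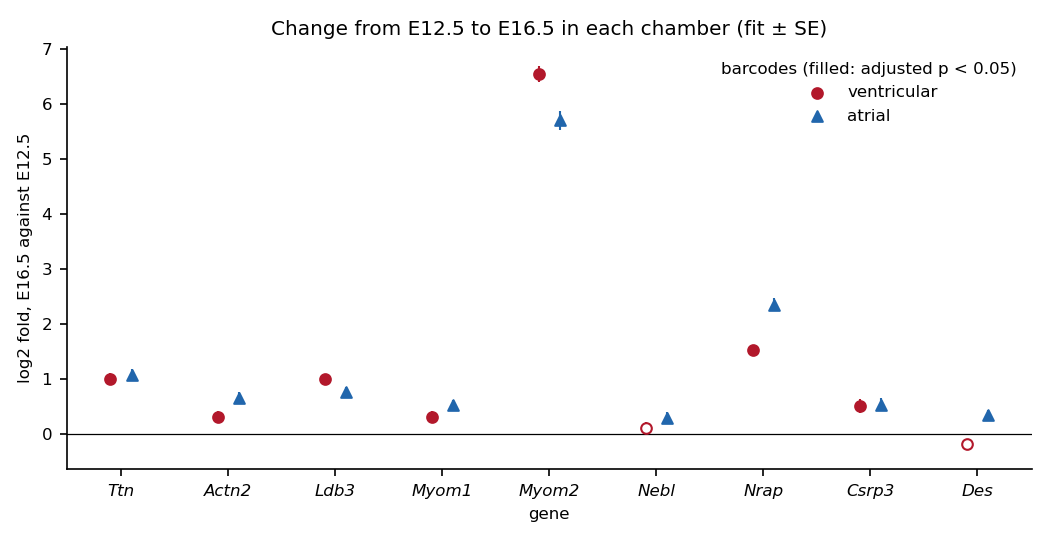
Change from E12.5 to E16.5 (log2, vertical axis) of each gene (horizontal axis) in ventricular (red circles) and atrial (blue triangles) barcodes, from the edgeR fit, with bars of ± SE and filled points where the adjusted p is below 0.05. Myom2 gains the most in both chambers, Nrap gains 1.53 in ventricular and 2.35 in atrial barcodes, and Des is 0.34 in atrial and -0.19 in ventricular barcodes. The bars of Myom2 understate its error, since it held few UMIs at E12.5.

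The test of the difference between these changes was passed by Nrap and Des. Nrap gained 0.82 less in ventricular than in atrial barcodes (log2 -0.82 ± 0.15, adjusted p = 0.00043), so its ventricular excess was smaller at E16.5. For Des the difference was -0.53 ± 0.14 (adjusted p = 0.0159), from a ventricular excess at E12.5 to a fitted chamber difference near 0 at E16.5. In CPM, which are not scaled by TMM, Des was lower in ventricular than in atrial barcodes of both E16.5 libraries, and the fitted difference without TMM was -0.17, which did not pass. Both calls were lost after thinning (-1.03 and -0.54) and with stricter chamber thresholds (-0.94 and -0.65), and that of Des also without either E16.5 library (-0.57 and -0.51). Myom2 gained more in ventricular barcodes, by 0.84 ± 0.39 (adjusted p = 0.201), Actn2 less, by -0.34 ± 0.15 (adjusted p = 0.174), and neither passed, though Actn2 did in DESeq2 (-0.33), in the fit of E12.5 to E16.5 alone (-0.37) and without replicate 2 of E10.5 (-0.36).

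Some differences in technical values ran along with the stages. The median share of mitochondrial UMIs in ventricular barcodes was 5.68 and 3.89% in the E10.5 libraries, then 6.43 and 6.92%, 8.51 and 8.37%, and 10.8 and 11.2% up to E16.5, with 23.1% in the P3 matrix. The atrial medians were 3.51 and 4.04%, 7.27 and 7.08%, 8.26 and 8.51%, 7.83 and 8.72%, and 13.997%. The mean Tnnt2 level of cardiomyocyte barcodes was 2287 and 2609 CPM at E10.5 and 7077 and 7221 CPM at E16.5, so the threshold of 1500 CPM lay closer to it at E10.5. At thresholds of 500, 1500 and 3000 CPM, replicate 1 of E10.5 gave 191, 108 and 16 cardiomyocyte barcodes and replicate 1 of E16.5 gave 4028, 3607 and 3342. The skeletal muscle markers stood at 43.0 and 73.0 CPM in atrial and 5.71 and 5.83 CPM in ventricular barcodes at E12.5, with Myod1 and Chrna1 at 0 in both. Markers of other cell types moved too. The 6 neural markers summed to 58.9 and 78.5 CPM in cardiomyocyte barcodes of E10.5 and to 7.92 and 6.30 CPM at E12.5. The 6 macrophage markers went from 1.98 and 0.906 CPM at E12.5 to 13.2 and 5.69 CPM at E16.5. The 6 smooth muscle and pericyte markers summed to 290.3 and 290.8 CPM in cardiomyocyte barcodes of E12.5 and to 74.1 and 76.6 CPM at E16.5, where the atrial sums held 169 and 187 CPM against 66.8 and 67.9 CPM in ventricular ones. At E12.5 they held 328 and 337 CPM in atrial and 283 and 284 CPM in ventricular barcodes. The 6 fibroblast markers went from 62.6 and 69.0 CPM at E12.5 to 91.1 and 123 CPM at E16.5, and in atrial barcodes of E14.5 they stood at 33.1 CPM in replicate 1, with Tcf21 at 0, and 191 CPM in replicate 2. The 6 endothelial markers were higher in atrial than in ventricular barcodes at E14.5, at 87.9 and 96.5 against 29.7 and 26.1 CPM. The part of these differences in the results above was not tested beyond the alternatives named.

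Levels were also read in barcodes of other classes. They carried at least 3 markers of 1 class only and under 500 CPM of Tnnt2, except that skeletal muscle barcodes had a limit of 1000 CPM of Myl7 in its place and can include the skeletal-marked barcodes above. The limit on Tnnt2 leaves out barcodes with much stray cardiomyocyte RNA, so low levels of the members in these classes follow in part from how they were chosen and are no measure of the background in all barcodes. Endothelial barcodes of E12.5 to E16.5 held the 8 members other than Myom2 at 0.695 to 3.45% of the cardiomyocyte level of their library. For Myom2 the range was 0 to 11.6%, with its top value from 1 UMI at E12.5. Free RNA itself, read in barcodes of 10 to 100 UMIs, held Ttn at 12.8 and 13.8 CPM at E10.5, 311 and 437 CPM at E12.5, 656 and 821 CPM at E14.5, and 1106 and 1203 CPM at E16.5. Csrp3 in free RNA was near its ventricular level, at 1490.5 and 1393 CPM at E12.5, 1307 and 1418 CPM at E14.5, and 1755 and 1737 CPM at E16.5, after 18.2 and 12.4 CPM at E10.5. Des stood there at 473 and 482 CPM at E12.5 and 376 and 440 CPM at E16.5. The genes that chose the barcodes were also high in free RNA from E12.5 to E16.5, with Tnnt2 at 2924 to 5810 CPM, Myl2 at 12454 to 18274 CPM and Myl7 at 2297 to 5778 CPM. These levels lie above the thresholds for a cardiomyocyte and for a ventricular barcode, so those thresholds do not by themselves tell a ventricular cardiomyocyte from free RNA. Free Myl7 also lay above the atrial threshold of 1000 CPM, and free Myl2 above the atrial limit of 500 CPM. That limit leaves out barcodes with much free RNA, and the ventricular rule has no such limit. The chamber groups thus differ in this respect by how they were chosen. The part of free RNA in the chamber levels was not tested. Desmin, which smooth muscle cells and pericytes also make, stood higher in those cells than in endothelial barcodes: at P3 it was at 229 CPM in 71 smooth muscle and pericyte barcodes (95% counting interval 191 to 272 CPM) against 19.5 CPM in 311 endothelial barcodes. At E16.5 it stood at 70.8 and 100.5 CPM in 15 and 18 such barcodes against 10.2 and 7.55 CPM. Myom1 was also above the endothelial level there at P3, with 64.4 CPM (45.1 to 89.2 CPM) against 14.4 CPM. At E10.5, 40 and 42 skeletal muscle barcodes held Des at 487 and 400 CPM and Ttn at 358 and 318 CPM, but Csrp3 at only 6.34 and 10.2 CPM.

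**Figure D5:**
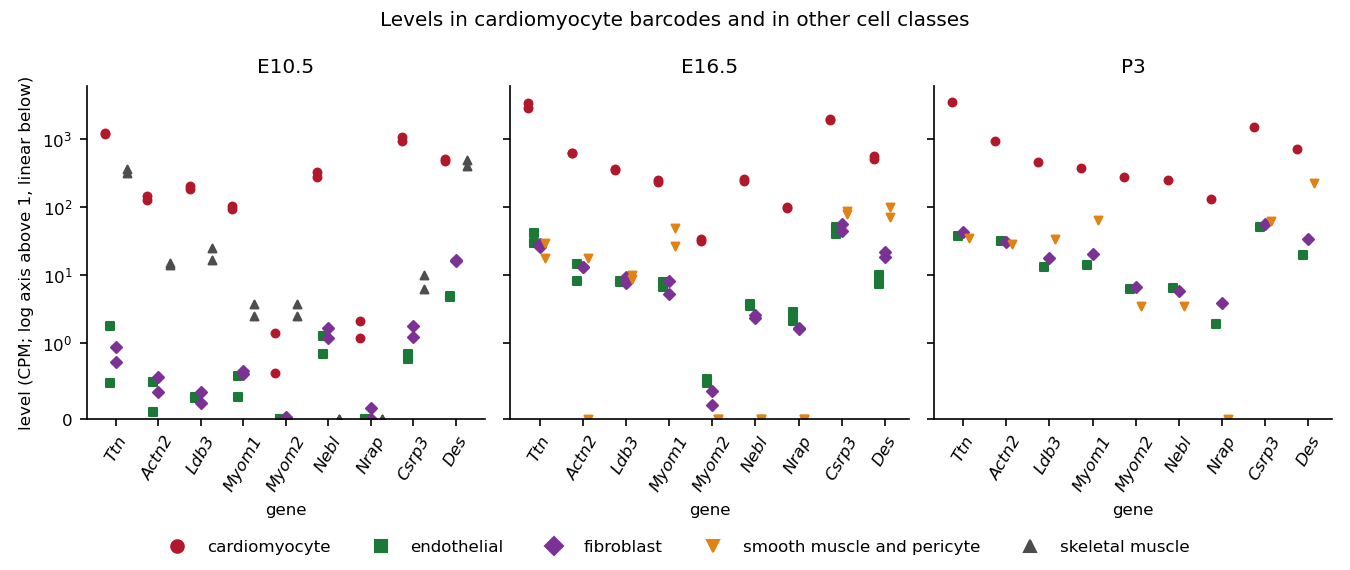
Level of each gene (CPM, vertical axis, logarithmic above 1 and linear below; horizontal axis: gene) at E10.5, E16.5 and P3 in cardiomyocyte (red), endothelial (green), fibroblast (purple), smooth muscle and pericyte (orange) and skeletal muscle (grey) barcodes, with 1 point per library. Classes other than cardiomyocytes and skeletal muscle were limited to under 500 CPM of Tnnt2. Des and Ttn of skeletal muscle barcodes at E10.5 and Des of smooth muscle and pericyte barcodes at P3 stand out from the other classes.

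A level summed over barcodes does not tell more barcodes with a transcript from more transcripts in each. After thinning to 2000 UMIs, Ttn was seen in 95.8 and 97.6% of ventricular barcodes at E16.5 (98.3 and 99.1% unthinned), against 5.68 and 6.51% of endothelial barcodes (34.4 and 29.3% unthinned), which were limited to under 500 CPM of Tnnt2. The median depths were 19804.5 and 14409.5 UMIs in ventricular and 11936.5 and 9406 UMIs in endothelial barcodes. Nrap was seen in 6.20 and 7.47% of thinned ventricular barcodes at E12.5 (52.8 and 52.2% unthinned) and in 17.9 and 18.6% at E16.5 (77.4 and 64.8% unthinned), against 0 and 0.592% of endothelial barcodes at E16.5 (4.55 and 2.66% unthinned). Myom2 was seen in 4.94 and 4.97% of thinned ventricular and 17.6 and 18.1% of thinned atrial barcodes at E16.5, and in 40.3 and 44.0% at P3. Unthinned, these shares were 28.9 and 23.7%, 63.4 and 61.2%, and 90.3 and 93.1%. In endothelial barcodes Myom2 was seen in 0.284 and 0% at E16.5 and in 0.643% at P3 (unthinned 0.852, 0.592 and 13.8%). At this fixed depth the shares of ventricular barcodes with Nrap and with Myom2 were higher at each later of these stages. A share after thinning also rises where each barcode holds more transcripts. These shares therefore do not tell more barcodes with a transcript from more transcripts in each either.

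At P3 the levels in ventricular barcodes were 10.2 times the E16.5 mean for Myom2, 1.61 times for Myom1, 1.51 times for Actn2, 1.38 times for Nrap, 1.34 times for Des, 1.29 times for Ldb3 and 1.08 times for Ttn, and 0.985 and 0.734 times for Nebl and Csrp3. In atrial barcodes the ratios were 2.89 for Myom2 and 2.0996 for Actn2, and 0.798 to 1.28 for the other members. With mitochondrial genes left out of the total, the ventricular ratios were 11.6 for Myom2 and 0.838 for Csrp3. Of the 9 members, 7 lay above both E16.5 libraries in ventricular barcodes, or 8 with mitochondrial genes left out. Ttn was among the 7 by a small margin, at 3381 CPM against 3376 CPM in replicate 2 of E16.5. The share of all genes that lay above both libraries was not read, so this count does not set the members apart. The study's mitochondrial ceiling for P3 would keep 1524 of the 5931 ventricular and 733 of the 768 atrial barcodes. The P3 levels under that ceiling were not read. The wells of the P3 matrix differed for some members: Ttn stood at 3865 CPM in well 1 and 2051 CPM in well 2 of the ventricular barcodes, and at 4906 and 2532 CPM in the atrial barcodes. Ldb3 went the other way, with 343 against 756 CPM in ventricular and 359 against 802 CPM in atrial barcodes, and Csrp3 had 1486 against 1044 CPM and 2736 against 1496 CPM. The order of P3 and E16.5 depended on the well for Ttn and Ldb3 in both chambers and for Des in atrial barcodes. Ttn lay below both E16.5 libraries in well 2 and above them in well 1, and Ldb3 the reverse. Atrial Des stood at 712 CPM in well 1, above both E16.5 libraries, and at 564 CPM in well 2, below both. Atrial Myom1 and Nebl lay above the E16.5 libraries in well 1 and between them in well 2, and ventricular Nebl between them in well 1 and below them in well 2. Csrp3 lay below both E16.5 libraries in either well and chamber. Markers of other cell types differed between the wells too: fibroblast markers stood at 131 CPM in well 1 and 319 CPM in well 2 of the ventricular and at 115 and 463 CPM of the atrial barcodes, smooth muscle and pericyte markers at 24.6 and 48.5 CPM and at 44.3 and 103 CPM, and macrophage markers at 16.3 and 27.1 CPM and at 10.4 and 66.2 CPM. Their part in the well differences was not tested. The study examined the batches of each stage by eye and reports significant batch differences at P3 alone. No label ties those batches to the wells.

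Members were also set beside the other Z-disc genes of a list of 25. Of these, 16 rose and 4 fell from E10.5 to E12.5, 5 rose and 4 fell from E12.5 to E14.5, and 13 rose and 4 fell from E14.5 to E16.5. The median log2 changes were 0.84, 0.06 and 0.24, beside the all-gene medians given above. Of all genes, 16.2, 18.2 and 19.9% rose and 13.4, 15.9 and 19.2% fell, so the counts of the middle step were near those shares. Myoz2, which encodes the calcineurin-binding Z-disc protein calsarcin-1, rose by 2.51 ± 0.12 and 0.70 ± 0.074 in the first 2 steps. Mypn, encoding myopalladin, rose by 0.53 ± 0.098 and 1.32 ± 0.086 in the last 2, and the PDZ and LIM gene Pdlim7 fell in both (log2 -0.37 ± 0.082 and -1.35 ± 0.084). The largest fall at E12.5 was that of Myot, encoding myotilin, at -5.15 ± 1.15, but all its 3 and 2 UMIs at E10.5 lay in the skeletal-marked barcodes.

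Between chambers, 3 of 24 Z-disc list genes were higher in ventricular barcodes at E10.5. In the following stages 6 were higher and 3 lower, then 8 and 4, and lastly 5 and 7. Of all genes, 16.7 to 17.1% were higher and 15 to 15.2% lower at these 3 stages, and 0.833% were higher at E10.5. The medians were 0.25, 0.15, 0.10 and -0.06. Pdlim1, a partner of alpha-actinin, was higher in ventricular barcodes at all 4 stages, by 1.15 ± 0.27, 1.58 ± 0.11, 1.84 ± 0.13 and 1.46 ± 0.12. Myoz2 was higher by 2.02 ± 0.33, 1.31 ± 0.097 and 1.23 ± 0.098 from E10.5 to E14.5. Cmya5, encoding myospryn, and Synpo2, encoding myopodin, were lower, at -1.52 ± 0.13 and -1.03 ± 0.086 at E12.5. Between E12.5 and E16.5, 15 rose and 6 fell in ventricular barcodes (median 0.31), and 14 rose and 3 fell in atrial barcodes (median 0.46), where 30.8 and 13.7% of all genes rose and 29.1 and 10.0% fell. The chamber ratio of 2 rose and of 7 fell between these stages, against 4.18% and 5.57% of all genes, with Myoz2 at -0.85 ± 0.13.

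Of 12 other M-band genes, 5 rose and 3 fell, 5 rose and 4 fell, and 7 rose and 3 fell in the 3 steps, with medians of 0.19, 0.15 and 0.23, beside 16.2, 18.2 and 19.9% of all genes higher and 13.4, 15.9 and 19.2% lower. Ckm, the muscle creatine kinase that binds the M-band, rose by 2.51 ± 0.21, 3.84 ± 0.087 and 2.23 ± 0.080. Its ventricular level went from 6.52 and 4.75 CPM (4 and 3 UMIs) at E10.5 to 2419 and 2628 CPM at E16.5. Between chambers, 4 of 11 tested were higher and 4 lower in ventricular barcodes of E12.5, then 4 and 3 in those of E14.5, and lastly 5 and 4, with medians of -0.15, 0.16 and 0.11, beside 16.7 to 17.1% of all genes higher and 15 to 15.2% lower. Trim54, a ubiquitin ligase of the sarcomere, was lower in ventricular barcodes by -1.47 ± 0.16, -3.19 ± 0.23 and -4.03 ± 0.19, with 1.29 and 1.25 CPM against 26.4 and 20.4 CPM at E16.5. Between E12.5 and E16.5, 4 rose and 2 fell in ventricular and 5 rose and 1 fell in atrial barcodes, with medians of 0.02 and 0.28. In ventricular barcodes this was 4 of 11 against 30.8% of all genes higher and 29.1% lower, and in atrial barcodes 13.7% of all genes were higher and 10.0% lower. Myom3, the third myomesin, held 1 and 5 UMIs at E10.5, of which 1 and 4 lay in skeletal-marked barcodes.

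Likeness of pattern was read as Pearson's r of log2(CPM + 1) over the 16 chamber sums of E10.5 to E16.5. These sums share libraries, stages and depth, so r is given as a description. Among the members r was 0.94 for Ldb3 and Myom2, 0.91 for Ttn and Myom2, and 0.91 for Actn2 and Nrap, while Nebl was negative with each of the others (-0.02 to -0.60). The most similar of all genes was Mybpc3, the cardiac myosin-binding protein C gene, for Actn2 (0.98), Mt3 for Ldb3 (0.99), Tapbp for Myom1 (0.97), Gm28875 for Myom2 (0.97), Paqr9 for Nebl (0.86), Commd3 for Nrap (0.98), Hsbp1 for Csrp3 (0.97) and Ctsd for Des (0.95). Yipf7 and 1500015O10Rik were among the 3 most similar to Ttn. The next were Uqcrc1 and Atp5a1 for Actn2, Mef2a and Corin for Ldb3, Plxnb2 and Pfkm for Myom1, Spsb1 and Tbc1d16 for Myom2, Wt1 and Sept4 for Nebl, Ldhb and Hspa12a for Nrap, Pgam2 and Mgst1 for Csrp3, and Uba1 and Hspg2 for Des.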

How the data were processed

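Droplet libraries of mouse embryos and hearts (10 matrices, 27998 genes) were analysed. The values are UMI counts per gene and barcode as the authors deposited them. The submitters' processing notes name Cell Ranger 2.1.1, Seurat 3.1.1 and the mm10 build, while the headers of the matrices give software version 3.1.0, or 3.0.0 for P3. The labels name trypsin and v2 chemistry where the study's methods name collagenase II and v3. Embryonic matrices list all 737280 possible barcodes, and the P3 matrix was already filtered to 10964. The 9 genes and all gene lists were chosen with earlier results of these data known.

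Barcodes were kept at 2000 UMIs and 1% mitochondrial UMIs. Cardiomyocyte and chamber barcodes followed the thresholds given in the report. Doublets were not called, and an alternative left out barcodes with at least 10% globin UMIs or at least 3 markers of another cell class. UMIs were summed per library, or per library and chamber, because cells are not replicates. The sums were fitted in edgeR 4.0.16 (R 4.3.3) with TMM, filterByExpr and the quasi-likelihood test, adjusted after Benjamini and Hochberg at 0.05 over all genes tested. The SE is the log2 change divided by the root of F. It is derived from the test and can understate the error where a group held few UMIs. The fit of stages used 8 libraries, and that of chambers 16 sums. No fold is given where a group held at most 3 UMIs. DESeq2 1.42.0 was an alternative, and the procedure was tested on simulated data. Python 3.11.15 with scipy 1.17.1 gave exact 95% intervals, and a count of 0 was given the limit of 3 counts.

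The ventricular and atrial barcodes of a library come from the same suspension, so the library is a pairing of chambers. The correlation of their deviations from the group means was -0.038 at E10.5, 0.15 at E12.5, 0.041 at E14.5 and 0.071 at E16.5. The values of that block are printed beside the results whose call it changed.

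Named were the 9 genes, from the other lists those with the 3 largest rises and falls among genes past the threshold in a comparison, and for each of the 9 the 3 genes most like it. Beyond this rule, Myom3 and Myot were described by their UMIs at E10.5 after these had been seen. Other settings changed 1 choice at a time: the test, TMM, the filter on low counts, the replicate block, the stages in the fit, the thresholds on Tnnt2, UMIs, mitochondrial share and chamber, mixed barcodes, mitochondrial genes, thinning of each barcode to 2000 UMIs, and each library in turn. Promoter sequences came from RefSeq (GRCm38.p6). Values of 1 gene of the M-band list that the naming rule also gave are not reported here.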

Additional observations from a re-analysis of the deposited data

Results flagged for a closer look

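The change from E12.5 to E16.5 differed between the chambers for Nrap and for Des, by the test of that difference in edgeR. For Nrap the change was 1.53 ± 0.068 in ventricular and 2.35 ± 0.13 in atrial barcodes, a difference of -0.82 ± 0.15 (adjusted p = 0.00043). The ventricular-to-atrial ratio within a library was 2.64 and 3.26 at E12.5 and 1.68 and 1.60 at E16.5, so both later libraries lay below both earlier ones.

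For Des the change was -0.19 ± 0.099 in ventricular and 0.34 ± 0.10 in atrial barcodes, a difference of -0.53 ± 0.14 (adjusted p = 0.0159). The log2 ratio of ventricular to atrial CPM was 0.36 and 0.40 at E12.5 and -0.15 and -0.20 at E16.5. Smooth muscle cells and pericytes also make desmin. Their markers stood at 283 and 284 CPM in ventricular against 328 and 337 CPM in atrial barcodes at E12.5. At E16.5 they stood at 66.8 and 67.9 CPM against 169 and 187 CPM. Their ventricular-to-atrial ratio fell like that of Des, but the levels did not move alike. In atrial barcodes the markers fell, while Des stood at 526 and 555 CPM at E12.5 and 567 and 643 CPM at E16.5. All 6 markers had UMIs in the ventricular barcodes of E16.5, while Higd1b was at 0 in both chambers at E12.5 and in atrial barcodes of replicate 2 of E16.5. With mixed barcodes left out, those with at least 3 of these markers among them, the Des difference was -0.50 and kept its call. The part of such cells in the Des result was not tested further. Over the alternatives, the difference for Nrap lost its call after thinning and with stricter chamber thresholds, and that for Des also without either library of E16.5. The stricter thresholds left 17 and 53 atrial barcodes at E12.5 and 30 and 64 at E16.5.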

How the results depend on the processing

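Results for 55 called and 32 not called pairs of gene and comparison were recomputed under 20 to 22 other settings each. Of the called ones, 1117 recomputed values kept their direction and call, 66 kept the direction and lost the call, and none changed sign under these settings. All 63 changes of sign concern differences that had not passed.

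The numbers of members called moved as follows. Between chambers at E10.5, 1 member was called, and DESeq2, total UMIs without TMM, no mitochondrial floor, mixed barcodes left out and mitochondrial genes left out each gave 2. The replicate block and stricter chamber thresholds gave 3, a Tnnt2 threshold of 500 CPM gave 4, and the mitochondrial ceiling and thinning gave 0. For the chamber difference over stages, 2 members were called, against 0 after thinning and with stricter chamber thresholds. Without TMM, 6 members were called in place of 8 for E16.5 against E14.5, and 6 in place of 4 between chambers at E16.5. Thinning gave 4 in place of 6 for E14.5 against E12.5 and between chambers at E12.5. Within atrial barcodes the count of 9 became 7 without TMM, after thinning and with Tnnt2 at 3000 CPM, and 6 with stricter chamber thresholds. Tnnt2 at 500 CPM gave 8 in place of 6 for E12.5 against E10.5. Other moves, left-out libraries aside, were by 1 member. Leaving out 1 library gave 6 to 7 in place of 6 for E12.5 against E10.5, 3 to 7 in place of 6 for E14.5 against E12.5 (3 without either E14.5 library), 7 to 9 in place of 8 for E16.5 against E14.5, 0 to 3 in place of 1 between chambers at E10.5, 3 to 6 in place of 6 at E14.5 (3 without either E14.5 library), 3 to 5 in place of 4 at E16.5, 5 to 8 in place of 7 within ventricular barcodes, 6 to 9 in place of 9 within atrial barcodes, and 1 to 3 in place of 2 for the chamber difference (1 without either E16.5 library). A stage left with 1 library is assumed to vary like the others.

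Changes of sign were these, on the log2 scale. For E12.5 against E10.5, Nebl gave 0.26 (and a call) with Tnnt2 at 500 CPM, against a call of -0.40 at 3000 CPM, 0.24 after thinning and -0.21 to 0.020 with a library left out. For E14.5 against E12.5, Actn2 gave -0.0015 without TMM, -0.013 without mixed barcodes, -0.0053 without mitochondrial genes, -0.077 after thinning and -0.053 to 0.062 with a library left out. Myom1 gave 0.024 with no mitochondrial floor, 0.057 with the ceiling, 0.015 after thinning and -0.13 to 0.072 with a library left out, and Csrp3 -0.20 to 0.10 with a library left out (-0.20, without replicate 2 of E12.5, was a call). Des gave -0.021 for E16.5 against E14.5 without TMM. Between chambers at E10.5, Tnnt2 at 3000 CPM gave -0.033 for Ttn and 0.54 for Ldb3, Ldb3 gave 0.11 with the ceiling and 0.20 after thinning, and Myom1 -0.17 to 0.48 with a library left out. Without TMM, Ttn gave -0.0021, -0.0034 and -0.10 from E12.5 to E16.5, Nebl -0.078 at E12.5, and Myom1 -0.082 and Des -0.0020 at E14.5. At E14.5, Myom1 gave -0.023 with Tnnt2 at 3000 CPM and -0.12 after thinning, and Des -0.0013 with no mitochondrial floor. At E16.5, Myom1 gave 0.0052 with no filter on low counts, 0.041 with Tnnt2 at 500 CPM, 0.032 with no mitochondrial floor, 0.028 without mitochondrial genes, 0.033 with stricter chamber thresholds and -0.071 to 0.011 with a library left out. Des at E16.5 gave -0.022 in DESeq2, -0.17 without TMM, -0.0095 in the fit of E12.5 to E16.5, -0.049 with Tnnt2 at 3000 CPM, -0.055 with no mitochondrial floor, -0.046 with the ceiling, -0.026 at 5000 UMIs, -0.026 without mixed barcodes, -0.023 without mitochondrial genes, -0.056 after thinning, -0.059 with stricter chamber thresholds and -0.042 to 0.0055 with a library left out. Within ventricular barcodes, Nebl gave -0.090 without TMM and -0.013 with Tnnt2 at 3000 CPM. For the chamber difference, Ttn gave 0.066 with no mitochondrial floor and 0.020 after thinning, Myom2 -0.13 after thinning, and Csrp3 0.011 without mixed barcodes, 0.028 after thinning, 0.078 with stricter chamber thresholds and -0.088 to 0.018 with a library left out. The causes were not tested.

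Replicate numbers of different stages share only a number (correlation of deviations -0.024 to 0.079), and the block by number gave the last step of Des a call (0.18). With the library as the block of chambers, Csrp3 (0.34) and Des (0.48) at E10.5 were called, and the block changed no other call of a member. Counts of all genes called moved by more than 1.5 times under some settings: after thinning, the stage counts were 945, 1581 and 2506 in place of 4289, 4931 and 5658, and the chamber counts 19, 710, 895 and 1026 in place of 168, 3769, 3819 and 3810. Thinning removes most UMIs by construction. Leaving out 1 library gave 2495 to 4275, 2743 to 5043 and 3485 to 6253 over stages, 2301 to 4076, 1661 to 4118 and 2157 to 4123 between chambers in place of 3769, 3819 and 3810, 1749 to 3130 in place of 2824 within atrial barcodes and 562 to 1371 in place of 1158 for the chamber difference. A Tnnt2 threshold of 3000 CPM gave 1213 for the first step and 88 between chambers at E10.5, where one of 500 CPM gave 373 and the ceiling 91. Stricter chamber thresholds gave 1246, 2437 and 1538 from E12.5 to E16.5, 656 within atrial barcodes and 276 for the difference, and thinning 2920 in place of 7116 within ventricular barcodes, 513 and 197. The shares of all genes called move with these counts. The E10.5 sums, with 36 to 51 barcodes, limit chamber comparisons there, and at most 3 UMIs barred a fold for Myom2 and Nrap.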

Other observations

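A list of 9 genes of the costamere, which ties the Z-disc to the cell membrane, and of intermediate filaments (Vim and Synm among them) was read in the same fits. Among all genes tested, 16.2, 18.2 and 19.9% rose and 13.4, 15.9 and 19.2% fell in the 3 steps between stages. Of all genes compared between chambers, 0.833% were higher and 0.581% lower at E10.5, and 16.7 to 17.1% were higher and 15 to 15.2% lower from E12.5 to E16.5. From E12.5 to E16.5, 30.8% rose and 29.1% fell in ventricular barcodes and 13.7% rose and 10.0% fell in atrial barcodes. Of these 9 genes, 5 rose from E10.5 to E12.5, with Plec, the cytolinker plectin, at 1.54 ± 0.15, Tln2, encoding talin 2, at 1.26 ± 0.13 and Dmd, encoding dystrophin, at 0.90 ± 0.18 (median 0.52). In each of the next steps 5 rose and 2 fell (medians 0.23 and 0.31). Murc, which encodes the caveolar protein cavin-4, rose by 0.60 ± 0.15 and then by 3.67 ± 0.10, while Synm, encoding the intermediate filament protein synemin, fell by 1.59 in the last step (log2 -1.59 ± 0.12). Between chambers, 1 of the 9 was higher in ventricular barcodes at E10.5. In the later stages 5 were higher and 1 lower, then 3 and 1, and lastly 3 and 2, of 9 genes each time. Tln2 was higher at all 4 stages, by 1.60 ± 0.28, 0.92 ± 0.092, 1.00 ± 0.10 and 0.71 ± 0.089. From E12.5 to E16.5, 6 rose and 3 fell in ventricular barcodes and 4 rose and 1 fell in atrial barcodes. The chamber ratio of Itgb1bp2, encoding melusin, rose by 1.25 ± 0.14, and those of Murc and Synm fell (log2 -2.28 ± 0.46 and -2.13 ± 0.29).

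Of 8 paralogs of the 9 genes, 1 rose and 4 fell from E10.5 to E12.5, 2 fell from E12.5 to E14.5, and 2 rose and 5 fell from E14.5 to E16.5 (medians -0.55, -0.21 and -0.33). The first falls included Actn3 (log2 -5.53 ± 0.57), Neb (-4.45 ± 0.27) and Pdlim4 (-2.81 ± 0.24). Of their UMIs at E10.5, the skeletal-marked barcodes held 69.2 and 100% for Actn3, 77.1 and 97.7% for Neb and 55.3 and 63.3% for Pdlim4. Actn1, the non-muscle alpha-actinin, fell in the later steps (-0.44 ± 0.070 and -0.51 ± 0.071). Of 7 tested between chambers, 1 was lower in ventricular barcodes at E10.5. In the later stages 2 were higher and 2 lower, then 1 and 2, and lastly 3 were lower. Csrp2, the relative of Csrp3, was lower at all 4 stages (-0.89 ± 0.14, -1.48 ± 0.13, -0.38 ± 0.13 and -1.16 ± 0.13), and Pdlim4 from E12.5 on (-2.54 ± 0.21, -2.94 ± 0.25 and -3.52 ± 0.18). Over E12.5 to E16.5, 1 rose and 5 fell in ventricular and 2 rose and 3 fell in atrial barcodes, and the chamber ratio of 3 fell.

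Of 4 genes that act at the ends of thin filaments, 2, 3 and 2 rose in the 3 steps, and Kbtbd13 fell in the last (-0.86 ± 0.28). Lmod3, encoding leiomodin 3, was higher in ventricular barcodes at E12.5, E14.5 and E16.5, by 1.16 ± 0.14, 1.78 ± 0.16 and 1.53 ± 0.13. Of 3 tested, 1, 2 and 2 were higher at these stages, and 3 rose in ventricular and 2 in atrial barcodes from E12.5 to E16.5.

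Of 4 genes tied to the spring region of titin, 3 were tested over stages. Ankrd23 rose by 1.29 ± 0.34 from E12.5 to E14.5 and by 1.24 ± 0.26 from E14.5 to E16.5, and Capn3, encoding the protease calpain 3, fell in the former step (-0.73 ± 0.18). Between chambers Capn3 was lower in ventricular barcodes at E12.5 and E14.5 (-1.42 ± 0.21 and -1.40 ± 0.31). Ankrd1, encoding the stress-responsive protein CARP, was lower at E16.5 (-1.86 ± 0.26). Ankrd1 rose by 1.36 ± 0.25 in atrial barcodes from E12.5 to E16.5, and its chamber ratio fell (-1.68 ± 0.35).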
